A study of Mus musculus with 18 samples.

Results

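The Dlk1-Dio3 region of mouse chromosome 12 is an imprinted domain that holds one of the largest groups of miRNA genes in mammals. The members described here are the rows whose names carry the miRNA numbers of this region, such as mir-127, mir-154, mir-379, mir-410, mir-666 and mir-673. This rule took 158 of the 2134 rows in the deposited data, 105 of them mature miRNAs, written miR with the arm as 5p or 3p, and 53 of them precursor hairpins, written mir. The rule uses names only and no measured value.

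Small RNA had been sequenced from 18 samples of BV-2 cells, an immortalized murine microglial line, with 3 samples in each of 6 groups. The groups were untreated control (Ctrl), LPS at 100 ng/ml for 4 h, cannabidiol (CBD) or Δ9-tetrahydrocannabinol (THC) at 10 μM for 6 h, and either cannabinoid given 2 h before LPS (CBD+LPS and THC+LPS). All groups share the same cell line, so the samples are cultures of 1 line and not separate animals, and no label says that the cultures of a group were independent. The p-values therefore measure only the spread between these samples, which may be technical. LPS, a cell wall component of bacteria, acts on microglia through a Toll-like receptor, and CBD and THC are plant cannabinoids.

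The miRNAs of this region are expressed from the maternal chromosome together with the long non-coding RNAs Meg3, Rian and Mirg, while the protein-coding genes Dlk1, Rtl1 and Dio3 are expressed from the paternal one. The hairpins mir-431, mir-433, mir-127, mir-434 and mir-136 lie antisense to Rtl1, a retrotransposon-derived gene, whose mRNA their mature products can cleave. The cluster is known for its expression in the embryo, the placenta and the brain, where miR-134, for example, acts on dendritic spines of neurons.

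In GENCODE M21 (GRCm38), 52 of the 53 hairpins lay on chromosome 12 between 109563692 and 109747960, a span of 184.3 kb between Meg3 and the end of Mirg. The remaining one, mir-496b, lay on chromosome 19 (16314892 to 16315004, minus strand). It was taken by its name alone, and without it and its mature row 156 members remained. On the plus strand were 51 of the 52, and mir-299b lay on the minus strand across from mir-299a. With a new segment begun wherever neighbouring hairpins lay more than 10 kb apart, the hairpins fell into 3 segments. The first ran from mir-770, in an exon of Meg3, to mir-136 and held 11 hairpins. The second held mir-341, mir-1188 and mir-370 in introns of Rian, and the third ran from mir-379 to mir-3072 and held 38, of which those from mir-382 onward lie in Mirg.

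The sequences of the mature members with most reads are shown first, since they carry most of the mature signal, with the arms of miR-154 and the 3p arm of miR-127, on which the comparisons below turn. They are from RefSeq (GRCm38.p6), which gave a sequence for 101 of the 105 mature members, and run 5′ to 3′ with the seed, bases 2 to 8, in capitals.
miR-673-5p: cUCACAGCucugguccuuggag
miR-668-3p: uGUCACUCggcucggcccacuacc
miR-3072-5p: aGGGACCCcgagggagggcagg
miR-431-3p: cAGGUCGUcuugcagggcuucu
miR-370-5p: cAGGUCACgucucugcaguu
miR-127-3p: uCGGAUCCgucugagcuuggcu
miR-154-5p: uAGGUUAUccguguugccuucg
miR-154-3p: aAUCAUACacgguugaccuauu

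The 101 sequences held 94 different seeds. Only 7 seeds were shared between members, by 14 members in pairs, among them miR-379-5p with miR-1193-5p and miR-370-5p with miR-1193-3p. None of the 8 sequences above shares its seed with another of the 8. The seed of miR-673-5p is also that of miR-6985-3p, which is no member.

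The hairpins on which the results turn are shown with their mature arms in capitals, and mir-666 by its arms with the seeds in capitals, because most of the reads of mir-666, mir-433, mir-127 and mir-1188 were listed on the hairpin row and not on an arm. Their positions are chr12:109717085-109717183 for mir-666, outside the host genes, and chr12:109591715-109591838 and chr12:109592846-109592915 for mir-433 and mir-127, antisense to an Rtl1 exon. mir-1188 lies at chr12:109611822-109611941 in an intron of Rian and mir-154 at chr12:109738433-109738498 in an intron of Mirg, all on the plus strand.
miR-666-5p: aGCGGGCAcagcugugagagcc
miR-666-3p: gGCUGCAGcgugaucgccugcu
mir-433: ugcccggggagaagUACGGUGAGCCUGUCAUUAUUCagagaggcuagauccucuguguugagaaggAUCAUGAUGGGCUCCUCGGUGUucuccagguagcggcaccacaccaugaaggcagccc
mir-127: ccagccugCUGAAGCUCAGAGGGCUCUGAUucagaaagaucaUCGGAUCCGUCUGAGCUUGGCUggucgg
mir-1188: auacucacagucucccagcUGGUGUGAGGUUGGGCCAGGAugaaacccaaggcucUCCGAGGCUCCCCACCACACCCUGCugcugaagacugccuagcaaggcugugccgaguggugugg
mir-154: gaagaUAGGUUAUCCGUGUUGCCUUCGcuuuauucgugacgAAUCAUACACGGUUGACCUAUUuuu

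The files list a hairpin and its arms as rows of their own. Hairpin rows do not contain the arms' reads, since mir-673 had 27 reads and miR-673-5p 1794. In mir-433, 80 of 124 bases lie outside the arms, and in mir-1188 it is 74 of 120. Which bases of a hairpin the reads on its row cover is not given by the files. The 18-base runs of the hairpins were searched in annotated transcripts on the given strand only. mir-666 and mir-544 had no hairpin sequence in RefSeq and were not searched. Runs of mir-433, mir-127, mir-1193, mir-377 and mir-154 were found in no GENCODE transcript outside the cluster. Runs of mir-1188 also occur in transcripts of Manba and Lonp1, and those of mir-3072 in Hormad2. mir-376b with mir-376c and with mir-487b, mir-411 with mir-758 and mir-299a with mir-299b share such runs with each other, so that the split of reads within these pairs is uncertain.

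The deposited values are reads scaled to the library size and to edgeR's TMM factor and are called CPM here. Whole reads were recovered from them for 100% of the values, and they summed to between 442718 and 1057147 per sample. A count of 3 reads, taken as the floor for counting error, corresponded to 2.98 to 6.38 CPM. Of the myeloid markers, miR-142-5p stood at 7254 to 12346 CPM and miR-223-3p at 48.5 to 178 CPM, while the neuronal miR-124-3p had 4 reads in all and was at 0 in 15 samples. Also on the neuronal list, miR-9-5p stood at 2.98 to 14.9 CPM in every sample. Muscle, erythroid and liver markers reached at most 4.74 CPM when summed over a list. The endothelial marker miR-126-3p stood at 72.1 to 161 CPM in every sample. The epithelial marker miR-141-3p stood at 5525 to 8978 CPM in every sample, with miR-200c-3p at 4.30 to 26.7 CPM, and the brain-enriched miR-128-3p stood at a median of 465 CPM.

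Little of the cluster was detected in BV-2 cells. In bulk samples like these, fewer cells with a miRNA and less of it per cell cannot be told apart. The 158 members held 7184 reads over the 18 samples, or 0.0526% of all reads, with a median of 4 reads per member against 23 for the other 1976 rows. At least 10 reads in all were reached by 53 members (33.5%), 28 hairpins and 25 mature miRNAs, against 66.3% of the other rows. At least 100 reads were reached by 12 members (7.59%), against 32.8% of the other rows. Under 10 reads were 105 members, and 15 of these had no read, which at this depth does not show that they were absent. Among those 15 were miR-411-5p, miR-543-3p, miR-376a-3p and miR-136-3p. No sample held more than 3 reads of any member below 10 reads. Of the members known from brain, miR-127-3p had 44 reads in all, from 0 to 4 in a sample.

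A few members carried most of these reads. The 4 with most reads, miR-673-5p (1794 reads), mir-666 (788), mir-433 (546) and miR-668-3p (a mean of 38.8 CPM), made up 51.0% of the reads of the cluster, and the 12 with at least 100 reads made up 79.2%. The other 8 of these were mir-127 (498), miR-3072-5p (440), mir-1193 (314), miR-431-3p (194), mir-3072 (192), mir-770 (163), mir-377 (119) and mir-1197 (102). By segment, the first held 3661 reads, the second 258 and the third 3179, and mir-496b with its mature row held 86. The third segment has most hairpins, yet only 24 of its 114 members had at least 10 reads, against 21 of 33 in the first and 7 of 9 in the second.

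**Figure D1:**
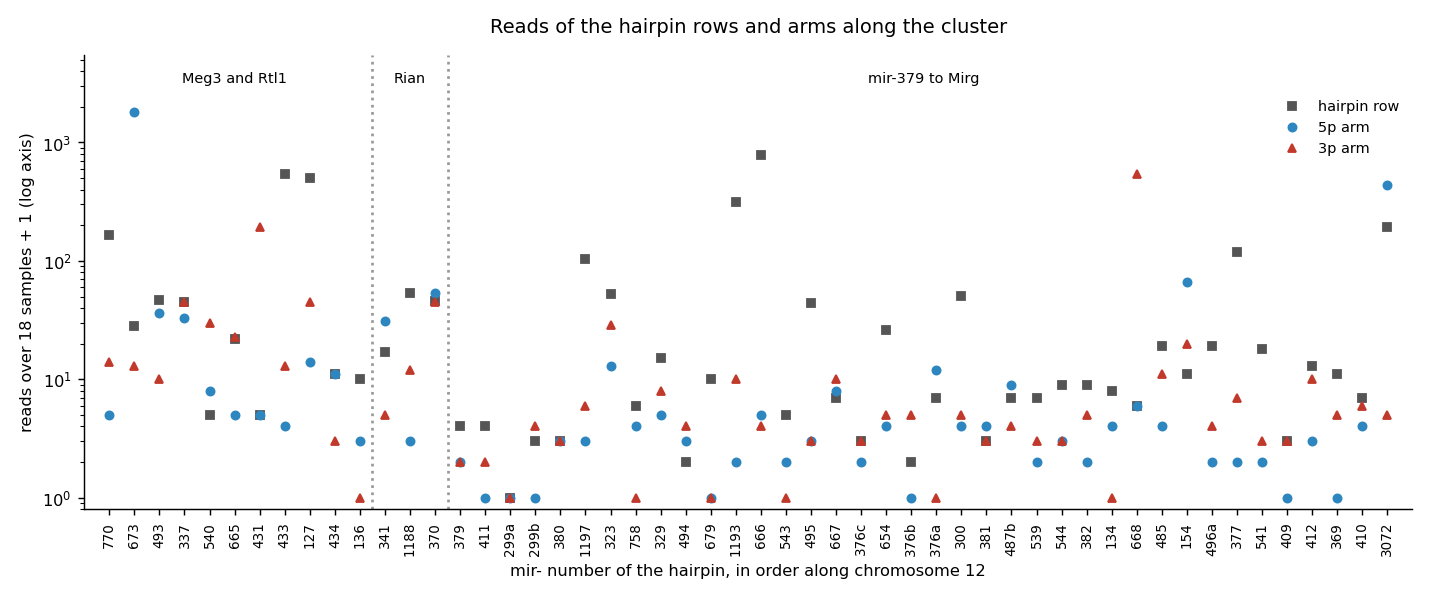
Reads over the 18 samples plus 1 (log axis) of the hairpin row, the 5p arm and the 3p arm of each of the 52 hairpins on chromosome 12, in order of position, with dotted lines between the 3 segments. miR-673-5p stands highest with 1794 reads. In the segment on the right 24 of the 114 rows reach 10 reads, the highest being mir-666, miR-668-3p, miR-3072-5p and mir-1193.

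Hairpin rows held 47.9% of the reads of the cluster (3443 of 7184), against 12.8% over all other rows. Of the 39 hairpins with at least 10 reads on the hairpin and its arms together, 24 had more reads on the hairpin row than on the arms and 15 fewer. The share on the hairpin row was 99.1% for mir-666 (788 reads against 4 on the 5p and 3 on the 3p arm), 97.3% for mir-433, 96.9% for mir-1193 and 89.7% for mir-127. It was 1.47% for mir-673, 0.911% for mir-668 and 1.98% for mir-431, where a single arm held nearly all reads. For mir-154 the 5p arm held 65 reads, the 3p arm 19 and the hairpin row 10.

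The ranges of the share of reads on the cluster overlapped between all 6 groups. The share was 0.0558% ± 0.0278 in control (SD, n = 3), 0.0456% ± 0.0018 with LPS, 0.0413% ± 0.0165 with CBD, 0.0726% ± 0.0331 with THC, 0.0510% ± 0.0187 with CBD+LPS and 0.0441% ± 0.0138 with THC+LPS. Across single samples it ran from 0.0258% in control sample 22 to 0.109% in THC sample 25.

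**Figure D2:**
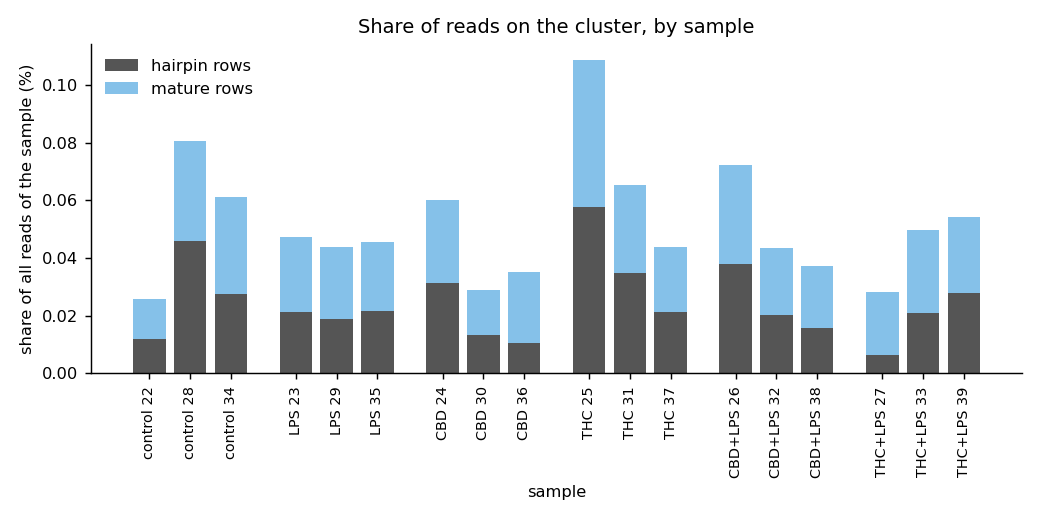
Share of all reads of each sample on the cluster (%), stacked as hairpin rows and mature rows, with the samples in the order of their groups and named by their label numbers. Control 22, THC+LPS 27 and CBD 30 have the lowest shares, below 0.03%, and THC 25 the highest, 0.109%.

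Part of this spread moved with the composition of the library. Its measure here was the summed level of the hairpins mir-6243, mir-6236 and mir-6240, abundant rows that are no members, called the index hairpins below. The share of reads on the index hairpins was 0.151% to 0.361% in the 4 samples numbered 22 (control), 27 (THC+LPS), 30 and 36 (CBD) and 1.20% to 4.55% in the 14 others. In 8 of the 53 tested members every one of the 4 samples lay below every one of the 14, namely mir-1193, mir-3072, mir-370, miR-370-5p, mir-377, miR-431-3p, mir-433 and mir-666, and in 0 members above. Over all 1363 tested features the 4 samples lay below in 5.65%. mir-433 had 0 to 2 reads in the 4 samples and 17 to 63 in the others, which is 0 to 4.25 CPM against 20.4 to 70.3 CPM. mir-377 had 0 reads in the 4 samples and 2 to 17 in the others, and miR-431-3p 0 to 2 against 3 to 30.

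With the log2 of the summed level of the index hairpins as a covariate beside the groups (limma), 18 of the 53 members had an adjusted p of at most 0.1 for this covariate, against 16.9% of all tested features, and 16 of them rose with it, against 14.2% of all. The steepest were mir-433, which rose by 1.23 on the log2(CPM + 1) scale per doubling (SE, the standard error, 0.14, limma adjusted p 1.03e-06), mir-377 (1.09), mir-3072 (1.09) and mir-1193 (0.99). mir-666 rose by 0.83 (SE 0.12, limma adjusted p 2.73e-05). The most abundant member, miR-673-5p, rose by 0.39 (SE 0.07, limma adjusted p 0.00075). It stood at 31.9 to 103 CPM in the 4 samples and 97.5 to 205 CPM in the others. mir-485 and miR-337-3p fell by 0.49 and 0.48. Not every abundant member moved this way. miR-668-3p stood at 24.4 to 36.4 CPM in the 4 samples and 23.5 to 62.6 CPM in the others, and miR-3072-5p at 24.4 to 64.8 against 21.3 to 44.5 CPM, although its own hairpin row mir-3072 was at most 3.76 CPM in the 4 samples and at least 6.54 CPM in the others. A further covariate for samples 22 to 27, the first of each group by label number, reached an adjusted p of at most 0.1 in 0 members by limma, against 18.1% of all tested features. mir-433, mir-1193, mir-770, mir-377, mir-1197, mir-485 and the index hairpins are named here because of their values.

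**Figure D3:**
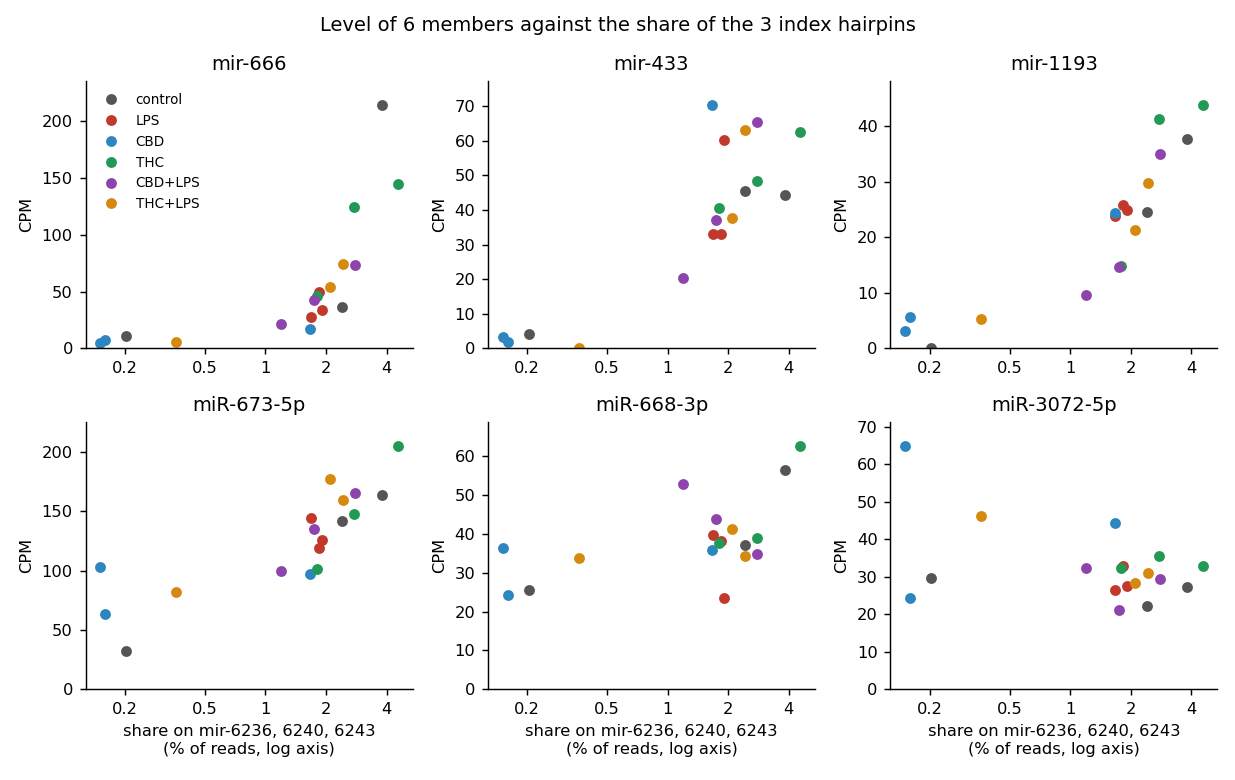
Level in CPM of 6 members in each of the 18 samples (points, coloured by group) against the share of the sample's reads on the 3 index hairpins (%, log axis). mir-666, mir-433 and mir-1193 are lowest in the 4 samples on the left, at most 10.6, 4.25 and 5.63 CPM, while miR-668-3p and miR-3072-5p overlap between those samples and the others.

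Each comparison was made with limma on log2(CPM + 1) over the 1363 features with at least 10 reads. Between groups of 3, a member was counted as changed when its unadjusted p was 0.005 or less and its change 1.5-fold or more, and adjusted p-values are those of the Benjamini-Hochberg method over all 1363 features. The comparisons with control share the control samples and those with LPS share the LPS samples. In this fit no member reached an adjusted p of at most 0.1 between any pair of groups.

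With LPS alone, 1 of the 53 members changed against control, miR-154-3p, against 1.54% of all tested features. Its reads were 0, 0 and 0 in control and 2, 2 and 4 with LPS, or 2.62, 2.65 and 4.12 CPM. All LPS samples lay above all control samples, yet each level is near that of a few reads. Against a floor of 3 reads over the control group, the ratio of the pooled reads was 1.81, with no counting error taken for the LPS reads. The difference on the log2(CPM + 1) scale was 2.03 (SE 0.55, limma adjusted p 0.143), a value that depends on the pseudocount. Neither value is a bound. Leaving out any control sample or LPS sample 35 ended this call. The hairpin mir-337 had 2, 3 and 3 reads in control and 0, 0 and 3 with LPS, and it did not pass. The differences of the 53 members had a median of 0.08, beside 0.11 over all features.

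Pooled over the cannabinoids, with 9 samples with and 9 without LPS, miR-154-3p was again the only member to change, with a log2 difference of 1.52 (SE 0.33, limma adjusted p 0.0147), against 1.54% of all tested features. It had 18 reads in the 9 LPS samples and 1 in the 9 samples without LPS, from libraries of 7637670 and 6032894 reads. It thus passed the filter on reads summed over all samples only through the LPS samples, where it was high. The same holds for its comparisons with control. With a filter of at least 1 read, which its read without LPS also meets, the adjusted p of the pooled effect was 0.0239 (limma). This value and the interval, subsets and count tests below use the same reads, so they are no independent support for the difference. The CBD+LPS samples held 0, 2 and 2 reads and the THC+LPS samples 2, 3 and 1. Without LPS the single read was in CBD sample 30, and the 3 THC samples had 0. The groups thus overlapped only through CBD+LPS sample 26, at 0, and CBD sample 30, at 1.88 CPM. The ratio of the pooled reads was 14.2, with an exact 95% interval from 2.24 to 592 that covers counting error only. The other products of this hairpin moved less. miR-154-5p had 36 reads with and 29 without LPS (log2 difference 0.56, adjusted p 0.927 from limma), and mir-154 had 8 and 2 (0.47, adjusted p 0.927). Without the 4 samples with a low share of the index hairpins the difference of miR-154-3p was 1.69, and within samples 28 to 39 it was 1.60. Both passed the threshold. On the recovered reads, edgeR's quasi-likelihood test also called it, DESeq2 did not, and edgeR's filterByExpr removed it before testing. These 2 LPS comparisons share samples and are not independent of each other.

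With CBD alone, 0 of the 53 members changed against control in limma, against 1.61% of all tested features. An unadjusted p of at most 0.05 was reached by 4 members (7.55%), against 9.17% of all tested features (limma). The differences ran from -2.23 to 1.34, with a median of -0.21 beside 0.00 over all features. At -2.23 stood mir-666, with 5, 125 and 31 reads in control and 12, 4 and 3 with CBD, or 86.8 ± 111 against 9.82 ± 6.55 CPM (SD, n = 3). Control sample 22 lay below CBD sample 24, so the groups overlapped, and the adjusted p was 0.482 (limma). Within samples 28 to 39 the count was 10, all lower with CBD, against 11.2% of all tested features. There the CBD samples are 30 and 36, and no other sample of that subset has a low share of the index hairpins. CBD and library composition cannot be told apart there. On the recovered reads, both count tests did call mir-666 lower with CBD, at a log2 difference of -3.10 (adjusted p 0.373) in edgeR's quasi-likelihood test and -3.14 (adjusted p 0.0627) in DESeq2. With the composition covariate 3 members were called, of which miR-337-3p was lower (-2.25) and mir-1193 (1.62) and mir-3072 (1.74) were higher with CBD. The direction of these last members flipped with the setting, since both are among the 10 that were lower within samples 28 to 39, at -2.58 and -2.56, and with all samples and no covariate they stood at -0.16 and -0.21.

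With THC alone, 1 member changed against control, miR-127-3p, an arm antisense to Rtl1, against 0.44% of all tested features. It had 4, 3 and 3 reads in control and 3, 0 and 0 with THC, or 8.51, 5.13 and 3.5 against 2.98, 0 and 0 CPM. All THC samples lay below all control samples, though THC sample 25 held 3 reads like control samples 28 and 34. The log2 difference was -2.01 (SE 0.62, limma adjusted p 0.959), and the ratio of pooled reads, control over THC, was 4.48 with an exact 95% interval from 1.15 to 25.3. The call was lost under library size alone, RLE, a pseudocount of 2, a filter of at least 1 read, edgeR's quasi-likelihood test, DESeq2, the composition covariate and without the 4 samples of low index share, and when any of 15 single samples was left out. The hairpin mir-127 stood at 34.05 ± 3.11 CPM in control and 37.8 ± 4.75 CPM with THC (SD, n = 3), a log2 difference of 0.14 with a 95% interval from -0.67 to 0.96.

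Against control, CBD+LPS changed 0 members in limma, with 1.39% of all tested features called. An unadjusted p of at most 0.05 was reached by 1 member (1.89%), against 6.31% of all tested features. THC+LPS changed 2 members, with 1.83% of all tested features called. These were miR-154-3p, with 2, 3 and 1 reads against 0 in each control sample (1.82, SE 0.55, limma adjusted p 0.237), and mir-1188, in an intron of Rian. Leaving out any of 11 single samples ended the call of miR-154-3p, and leaving out control sample 22 or 28 or THC+LPS sample 27 or 33 ended that of mir-1188.

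mir-1188 was nearly missing from the THC+LPS samples. It had 0, 0 and 1 reads there, while each of the 15 other samples held between 1 and 5. In reads, these were 2, 3 and 1 in control, 3, 4 and 5 with LPS, 5, 4 and 4 with CBD, 5, 4 and 4 with THC and 3, 3 and 2 with CBD+LPS. The mean was 0.382 ± 0.662 CPM with THC+LPS, 3.52 ± 2.08 in control, 4.79 ± 0.754 with LPS, 5.03 ± 0.345 with THC, 3.26 ± 0.80 with CBD+LPS and 7.001 ± 0.612 with CBD (SD, n = 3). The highest THC+LPS sample, at 1.15 CPM, lay just below the lowest control sample, at 1.17 CPM. mir-1188 was the only member to differ across the 6 groups in the F test, with an adjusted p of 0.0504 (limma), against 1.76% of all tested features.

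Set against LPS alone, CBD+LPS changed 0 members in limma, with 0.22% of all tested features called. An unadjusted p of at most 0.05 was reached by 3 members (5.66%), against 3.23% of all tested features. THC+LPS changed 1, mir-1188, also with 0.22% of all tested features called, and its log2 difference was -2.16 (SE 0.48, limma adjusted p 0.414). From the pooled reads, the ratio of LPS to THC+LPS was 11.1, with an exact 95% interval from 1.64 to 474. Against control the log2 difference was -1.67 (SE 0.48, limma adjusted p 0.201). The ratio of control to THC+LPS in pooled reads was 8.15, with an exact 95% interval from 0.989 to 375, which holds 1. Of the THC+LPS samples, 27 is among the 4 with a low share of the index hairpins, and 33 and 39 are not. Without the 4 samples the difference from LPS was -1.97 and passed the criterion, while that from control was -1.31 and did not. Under DESeq2 neither passed, and in the F test edgeR's quasi-likelihood test and DESeq2 called 0 members. The arms of this hairpin, miR-1188-5p and miR-1188-3p, had 2 and 11 reads in all.

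**Figure D4:**
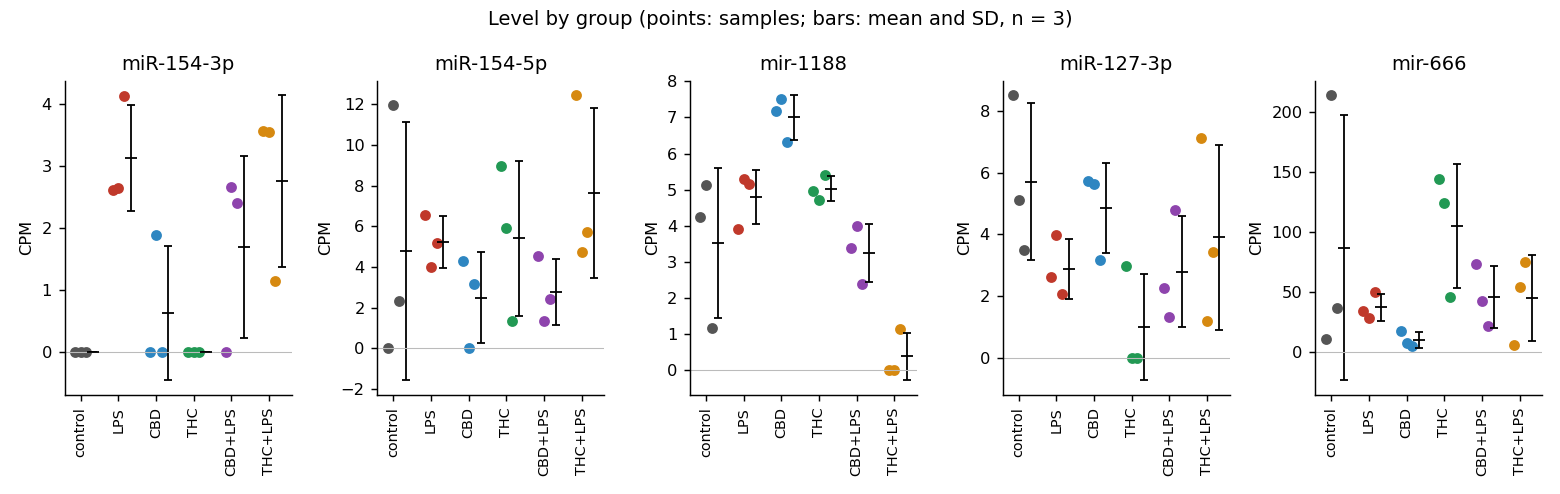
Level in CPM of miR-154-3p, miR-154-5p, mir-1188, miR-127-3p and mir-666 by group, with a point for each sample and the mean and SD beside them (n = 3). miR-154-3p is at 0 in all control and THC samples, mir-1188 is at most 1.15 CPM with THC+LPS, and mir-666 ranges from 10.6 to 214 CPM among the control samples alone.

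CBD and THC are isomers, in which THC has a closed pyran ring and CBD an open one with a further free hydroxyl group. They were compared at the same dose and time, in 1 pair without and 1 pair with LPS. In resting cells 1 member differed, mir-666, against 3.3% of all tested features. mir-666 had 12, 4 and 3 reads with CBD and 145, 105 and 34 with THC, or 17.2, 7.51 and 4.74 against 144, 124 and 45.9 CPM. All CBD samples lay below all THC samples, with a log2 difference of -3.30 (SE 0.94, limma adjusted p 0.133) and a 95% interval from -5.28 to -1.32. The share of the index hairpins was 1.67%, 0.160% and 0.151% in these CBD samples and 4.55%, 2.77% and 1.80% in the THC samples, so that it separates the groups as well. With that level as a covariate the difference was -0.82 and no longer passed, and without the 4 samples of low share, which leaves 1 CBD sample assumed to vary like the other groups, it was -2.38 and did not pass either. With a block for the 3 sets of 6 consecutive label numbers, each of which holds 1 sample of every group, the difference of -3.30 had an adjusted p of 0.0999 (limma). Leaving out THC sample 25 or 31, or CBD sample 30 or 36, also ended the call. Within samples 28 to 39, 9 members differed, against 11.6% of all tested features, 8 lower and 1, miR-127-3p, higher with CBD.

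For the other members the intervals between CBD and THC were wide. The 95% interval held 0 for 46 of the 53, the median half-width was 1.43 on the log2 scale, and for 0 members did the interval lie within 2-fold in either direction. miR-673-5p stood at 88.0 ± 21.1 CPM with CBD and 151 ± 51.9 with THC (SD, n = 3), a log2 difference of -0.75 with an interval from -1.76 to 0.27. miR-668-3p differed by -0.50 with an interval from -1.21 to 0.21, and miR-3072-5p by 0.30 with an interval from -0.41 to 1.003. A difference of 2-fold was thus not excluded by the intervals for any of these.

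Under LPS, 1 member differed between the cannabinoids, mir-1188, against 0.147% of all tested features. The log2 difference, CBD+LPS minus THC+LPS, was 1.70 (SE 0.48, limma adjusted p 1) with a 95% interval from 0.70 to 2.71, and all CBD+LPS samples lay above all THC+LPS samples. For mir-1188 the ratio of pooled reads, CBD+LPS over THC+LPS, was 7.66 with an exact 95% interval from 1.03 to 340. mir-666 differed by 0.49 with an interval from -1.49 to 2.47. miR-668-3p differed by 0.24 with an interval from -0.47 to 0.96, which lies within 2-fold.

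A difference of a cannabinoid's effect with LPS from its effect without LPS (interaction) was called in 0 members for CBD and 0 for THC by limma, as in 0% of all tested features for either. At an unadjusted p of at most 0.05 there were 3 members (5.66%) for CBD, against 4.77% of all tested features. For THC there were 2 (3.77%), against 3.74% of all. For mir-1188 the interaction with THC was -2.71 (SE 0.68, limma adjusted p 0.652), and for mir-666 the interaction with CBD was 2.41 with a 95% interval from -0.39 to 5.21.

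**Figure D5:**
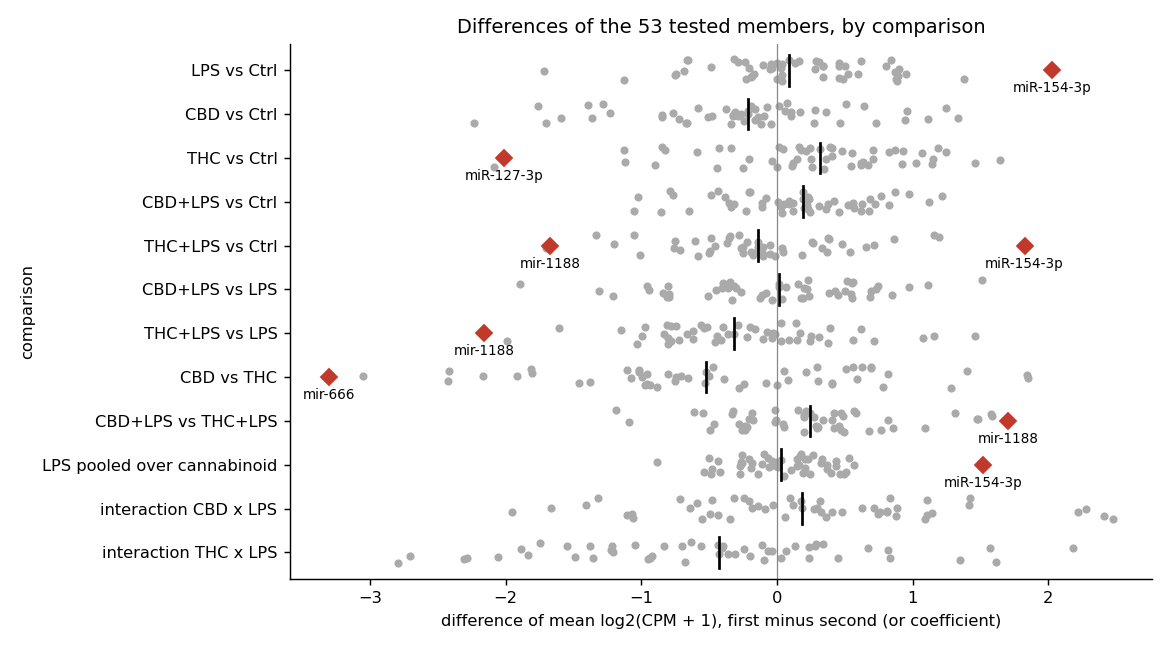
Differences of the 53 tested members on the log2(CPM + 1) scale in each comparison of groups, the first group minus the second, the pooled LPS effect and the interactions, with a grey point per member, a black line at the median and red diamonds for members past the threshold. The called members are miR-154-3p, mir-1188, miR-127-3p and mir-666, and the medians lie between -0.53 and 0.32.

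The most abundant member changed in none of these comparisons at the thresholds used. In rising order, miR-673-5p stood at 88.0 ± 21.1 CPM with CBD, 113 ± 70.9 in control, 130 ± 12.9 with LPS, 133.6 ± 33.1 with CBD+LPS, 139 ± 50.8 with THC+LPS and 151 ± 51.9 with THC (SD, n = 3). Neighbours in this order overlapped in their samples, while the CBD samples, at most 103 CPM, lay below the LPS samples, at least 119 CPM. The LPS effect pooled over the cannabinoids was 0.32, with a 95% interval from -0.25 to 0.89. For miR-668-3p the pooled LPS effect was -0.02 (interval from -0.44 to 0.40) and for miR-3072-5p -0.14 (-0.55 to 0.28), both within 2-fold. mir-127, antisense to Rtl1, stood highest with CBD, at 57.1 ± 3.63 CPM, where its samples lay above all control samples (0.73, interval from -0.09 to 1.55, adjusted p 0.578 from limma).

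Other miRNAs of the region, which the rule on names did not take, are mir-1906, mir-3070, mir-3071 and mir-1247 with their arms. They make up 15 rows, of which 8 had at least 10 reads. miR-1247-3p was higher with CBD+LPS (2.27) and THC+LPS (2.44) than in control, and mir-3071 was lower with CBD than with THC (-2.97), with adjusted p of 0.322, 0.172 and 0.141 from limma. mir-1247, near Dio3, held 716 reads, close to the number for mir-666.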

How the data were processed

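Small RNA of 18 BV-2 samples was analysed, grouped by label, with the label numbers 22 to 39 as names. By the study's methods, the authors aligned reads with BWA to the mouse sequences of miRBase, with up to 10 mappings per read, counted reads per miRNA and used edgeR. The study names v21 of miRBase for its mature sequences. The version used for alignment, and how a read with several mappings was counted, are not given in the sources used here. The values the authors deposited are a normalized signal, reads scaled by library size and TMM factor, read from the values, which were whole multiples (tolerance 0.001) of the smallest value above 0 of a sample.

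Values were tested as log2(CPM + 1) with limma 3.58.1 and a mean-variance trend in R 4.3.3, with the 6 groups in 1 model and over 1363 features with at least 10 reads in all. The pooled LPS effect came from an additive model of LPS and cannabinoid. Groups were compared at a p of at most 0.005 and 1.5-fold, the other tests at an adjusted p of at most 0.1, all 2-sided. The study's methods rank on an adjusted p of at most 0.1, and its further criterion of p and 1.5-fold was taken here as unadjusted. edgeR 4.0.16 and DESeq2 1.42.0 on the recovered reads were alternatives, besides other scalings, filters, pseudocounts, covariates and subsets. The limma fit was tested on simulated counts with a fixed dispersion and no effect of library composition. Recovery was judged only on features with at least 100 reads, so this test does not cover members with fewer. The members, gene lists, comparisons and alternatives were chosen with earlier results of these data known.

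Named were the 12 mature members with the highest mean, every member past a threshold, the arms and hairpins of these, and mir-666. Further names, given in the text, were chosen after their values were seen. Positions are from GENCODE M21 and sequences from RefSeq, both on GRCm38. Intervals of pooled ratios are exact (Clopper-Pearson) and cover counting error only, since PCR copies are not independent molecules.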

Additional observations from a re-analysis of the deposited data

How the results depend on the processing

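No member called as reported changed direction under the alternatives tried. Of members called only under an alternative, mir-1193 and mir-3072 flipped in CBD against control, from -2.58 and -2.56 in samples 28 to 39 to 1.62 and 1.74 with the composition covariate, and miR-431-3p in CBD+LPS against control went from 0.04 to -1.53 without samples 22, 27, 30 and 36. Each label number is used once, so the labels name no pairs, though the groups come in the same order in each run of 6 numbers. A replicate block of 6 consecutive label numbers (22 to 27, 28 to 33 and 34 to 39), added after seeing the data, changed no count of called members and kept the same members. Deviations from the group means correlated at -0.43 to 0.54 (median 0.06) between samples of the same set, with 16 of 45 pairs over 0.1. Between samples of different sets they correlated at -0.46 to 0.38 (median -0.03), with 20 of 90 pairs over 0.1. By their mean correlation with samples of other groups, 10 of 18 samples were closest to their own set, with no value for chance computed. The covariate for samples 22 to 27 reached an adjusted p of at most 0.1 in 18.1% of all tested features (limma), though in 0 members. With few reads per member the depth limits most values, since 41 of the 53 tested members had under 100 reads in all and filterByExpr kept only 12.

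Counts of called members, with the count as reported in brackets, moved as follows. LPS against control (1) became 2 with library size alone, RLE, a pseudocount of 0.5 or at least 1 read. It became 0 with filterByExpr, edgeR's quasi-likelihood test, DESeq2, the adjusted p as threshold, samples 28 to 39, or without samples 22, 27, 30 and 36, a subset chosen after seeing the data. CBD against control (0) became 1 with edgeR's quasi-likelihood test, DESeq2 or without those 4 samples, 10 in samples 28 to 39 and 3 with the composition covariate. THC against control (1) became 3 with at least 1 read, where mir-431, miR-665-5p and miR-770-5p were called and miR-127-3p was not, and 0 with library size alone, RLE, a pseudocount of 2, filterByExpr, both count tests, the adjusted p, the composition covariate or without the 4 samples. CBD+LPS against control (0) became 1 with at least 1 read or without the 4 samples. THC+LPS against control (2) became 3 with the composition covariate, which added mir-1197, 1 with a pseudocount of 2 and 0 with filterByExpr, both count tests, the adjusted p, samples 28 to 39 or without the 4 samples. CBD+LPS against LPS (0) became 1 without the 4 samples. THC+LPS against LPS (1) became 0 with filterByExpr, DESeq2, the adjusted p or samples 28 to 39 and 2 with the composition covariate. CBD against THC (1) became 2 with at least 1 read, both count tests or without the 4 samples (there miR-370-3p and miR-431-3p, and not mir-666), 9 in samples 28 to 39, and 0 with the adjusted p or the composition covariate. CBD+LPS against THC+LPS (1) became 2 with the composition covariate and 0 with at least 1 read, filterByExpr, both count tests, the adjusted p, samples 28 to 39 or without the 4 samples. The F test (1) became 0 with filterByExpr, both count tests or without the 4 samples, 2 with the unadjusted threshold and 9 in samples 28 to 39, and with at least 1 read its single call was miR-665-5p in place of mir-1188. With that filter THC+LPS against control also called miR-770-5p in place of mir-1188. The pooled LPS effect (1) became 0 with filterByExpr or DESeq2. The interaction with CBD (0) became 6 in samples 28 to 39, and that with THC (0) became 1 with the unadjusted threshold. For these counts and those of the F test the share of all tested features is not given here, so they are no result about the cluster. In samples 28 to 39 the CBD samples, 30 and 36, have a low share of the index hairpins. CBD and library composition cannot be told apart there. Where filterByExpr gave 0, the called member was not among those it kept. The cause of the other moves was not tested.

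Leaving out each replicate gave 0 to 1 for LPS against control, 0 to 2 for CBD against control, 0 to 1 for THC against control, 0 to 1 for CBD+LPS against control and 0 to 2 for THC+LPS against control. It gave 0 to 1 for CBD+LPS against LPS, 1 to 2 for THC+LPS against LPS, 0 to 2 for CBD against THC, 0 to 2 for CBD+LPS against THC+LPS, 0 to 2 for the F test, 1 for the pooled LPS effect and 0 for both interactions. The F test gave 0 without THC+LPS sample 27 or 33, LPS sample 35 or CBD sample 30 or 36. CBD+LPS against THC+LPS gave 0 without CBD+LPS sample 26 or 32 or THC+LPS sample 27 or 33.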
